A study of Mus musculus with 206 samples.

Results

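Of the 16201 consensus regions of histone H3 lysine 27 acetylation (H3K27ac) in mouse hippocampus, 3225 overlapped no consensus region of prefrontal cortex (PFC), hypothalamus or striatum by even 1 bp. These hippocampus-only regions were chosen by comparing the deposited consensus lists of the 4 brain regions, and the other 12976 hippocampus regions are called shared. The same rule left 394 of 18272 regions in PFC, 358 of 13788 in hypothalamus and 32669 of 60013 in striatum, so the striatum list was the longest by far. Without the striatum list, 5495 hippocampus regions would have been hippocampus-only. Every library came from about 10000 NeuN+ neuronal nuclei of a single wild-type C57BL/6NTac mouse, with both sexes used. Dams carried morphine minipumps (10 mg/kg/day) or saline pumps, and their pups received 10 mg/kg morphine or saline by injection, 2 times a day over postnatal days 1 to 14. As adults the offspring were given lipopolysaccharide (LPS), a bacterial cell wall component that provokes acute inflammation, or saline, and brain tissue was taken 2 h later. The hippocampus comparisons used 10 MOR-LPS, 11 MOR-SAL, 12 SAL-LPS and 11 SAL-SAL libraries, where the first word is the perinatal and the second the adult treatment. There were also 42 libraries of PFC, 41 of hypothalamus and 45 of striatum. The PFC libraries were built with a different kit from the rest, so kit and brain region cannot be told apart for PFC.

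H3K27ac marks nucleosomes at active promoters and enhancers, and it is placed by the acetyltransferases p300 and CBP. Enhancers are the more cell type-restricted of these elements, while promoters of broadly used genes carry the mark in most tissues. In the hippocampus, neurons of the dentate gyrus (granule cells) and of the CA fields (pyramidal cells) form a relay circuit for memory, and each uses its own set of transcription factors, among them Prox1 and Neurod1 in granule cells. In tissue samples such as these, fewer nuclei carrying a mark and less of the mark per nucleus cannot be told apart.

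The 250 bases at the most frequent peak summit are given for 8 hippocampus-only regions on which the results below turn, from GRCm38 (mm10), plus strand. They are the region of highest rank (chr5:124518467-124518716, in an intron of Rilpl1), the widest region (chr1:177509713-177509962, intergenic, nearest gene Zbtb18), 4 regions of dentate granule cell genes, a region in an intron of Grik4 (chr9:42847709-42847958) and an intergenic region near Nr4a2 (chr2:57139532-57139781). The 4 dentate regions lay in an intron of Maml2 (chr9:13597191-13597440), at the promoter of Lct (chr1:128332612-128332861), between genes near C1ql2 (chr1:120321200-120321449) and at the promoter of Neurod1 (chr2:79454787-79455036). Promoter, intron and intergenic, also in the labels below, are classes of the whole region and not of the 250 bases. The Lct region runs over chr1:128319440-128337042 and the Neurod1 region over chr2:79453431-79460928. Where the windows lie within these genes was not examined. Only 6 (Zbtb18, C1ql2) to 13 (Rilpl1, Grik4) of 44 hippocampus libraries had a summit within 150 bp of the chosen position. Over all hippocampus-only regions the median was 11 libraries, so most libraries had their summit elsewhere or no peak. Capitals mark CAGATG, an E-box recognised by proneural factors such as Neurod1, and TTGGCA, the half-site of nuclear factor I, on either strand, so that CATCTG is CAGATG on the minus strand. TGANTCA, the AP-1 site, and the MEF2 site were searched in the same way and had no match in these 8 windows. None of these motifs contains another.
Rilpl1 intron: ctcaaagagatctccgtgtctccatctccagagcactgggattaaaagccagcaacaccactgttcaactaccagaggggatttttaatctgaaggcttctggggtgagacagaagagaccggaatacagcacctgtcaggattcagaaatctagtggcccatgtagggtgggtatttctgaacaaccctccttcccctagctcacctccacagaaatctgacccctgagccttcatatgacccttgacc
Zbtb18 intergenic: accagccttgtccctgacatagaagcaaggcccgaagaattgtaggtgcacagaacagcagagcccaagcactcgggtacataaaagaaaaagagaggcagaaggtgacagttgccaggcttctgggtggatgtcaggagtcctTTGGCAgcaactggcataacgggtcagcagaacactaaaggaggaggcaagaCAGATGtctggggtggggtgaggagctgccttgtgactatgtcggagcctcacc
Maml2 intron: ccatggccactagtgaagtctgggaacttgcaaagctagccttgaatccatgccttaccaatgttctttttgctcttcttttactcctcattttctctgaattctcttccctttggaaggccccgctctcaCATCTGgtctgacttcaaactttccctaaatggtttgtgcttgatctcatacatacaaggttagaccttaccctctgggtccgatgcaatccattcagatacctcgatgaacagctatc
Lct promoter: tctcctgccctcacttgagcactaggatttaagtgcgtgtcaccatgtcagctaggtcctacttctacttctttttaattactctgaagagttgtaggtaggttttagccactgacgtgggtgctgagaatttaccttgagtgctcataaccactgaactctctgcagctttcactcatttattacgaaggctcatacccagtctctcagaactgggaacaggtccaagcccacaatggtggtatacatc
C1ql2 intergenic: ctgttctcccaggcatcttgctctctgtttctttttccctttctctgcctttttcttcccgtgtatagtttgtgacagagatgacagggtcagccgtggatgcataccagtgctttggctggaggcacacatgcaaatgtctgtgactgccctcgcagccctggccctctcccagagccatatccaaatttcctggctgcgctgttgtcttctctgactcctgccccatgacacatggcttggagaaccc
Neurod1 promoter: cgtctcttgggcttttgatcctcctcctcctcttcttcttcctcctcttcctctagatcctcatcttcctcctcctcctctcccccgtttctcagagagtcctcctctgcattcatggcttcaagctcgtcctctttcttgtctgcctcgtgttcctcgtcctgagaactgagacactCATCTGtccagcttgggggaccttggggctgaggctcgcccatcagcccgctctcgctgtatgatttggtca
Grik4 intron: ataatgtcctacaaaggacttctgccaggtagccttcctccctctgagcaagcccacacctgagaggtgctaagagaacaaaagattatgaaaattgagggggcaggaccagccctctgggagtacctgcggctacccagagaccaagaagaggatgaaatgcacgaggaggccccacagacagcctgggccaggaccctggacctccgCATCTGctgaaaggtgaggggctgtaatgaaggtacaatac
Nr4a2 intergenic: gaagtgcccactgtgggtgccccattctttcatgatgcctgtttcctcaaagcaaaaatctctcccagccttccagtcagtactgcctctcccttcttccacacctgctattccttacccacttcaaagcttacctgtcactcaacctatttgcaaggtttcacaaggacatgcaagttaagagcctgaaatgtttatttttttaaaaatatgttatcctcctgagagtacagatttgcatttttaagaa

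The proneural E-box CAGATG stood in 4 of these windows (Zbtb18, Maml2, Neurod1 and Grik4), and the nuclear factor I half-site in the Zbtb18 window. Over 300 bases at the summit, CAGATG was found in 26.8% of the hippocampus-only regions and 24.7% of the shared regions, against 25.1% of all 16201. Outside promoters the shares were 26.8% and 26.6%. In windows of 1000 bases outside promoters they were 73.6% of hippocampus-only and 67.1% of shared regions. A second E-box, the Ascl-type CAGCTG, went the other way at the summit. It was found in 16.09% of hippocampus-only and 19.51% of shared regions over 300 bases, and in 46.11% and 49.95% over 1000 bases. Over 300 bases at the region centre its shares were 16.96% and 16.78%. Over 300 bases at the summit, TTGGCA was found in 17.3% of hippocampus-only and 15.0% of shared regions, and in 15.4% of all. The GC box GGGCGG, common in CpG-rich promoters, stood in 4.09% of hippocampus-only and 11.3% of shared regions, and in 9.85% of all. Outside promoters its shares were 3.70% of hippocampus-only and 6.38% of shared regions. TGANTCA was found in 9.09% and 8.42%, and in 8.55% of all, and MEF2 in 4.43% and 4.12%, and in 4.19% of all. These are matches of letters on both strands among 21 motifs searched, and they were not compared by a test.

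Some libraries stood apart. In the hippocampus, 3 libraries had a peak at fewer than 10% of the hippocampus-only regions, namely SAL-LPS male 5-0 (4.84%), MOR-LPS male 6-0 (8.03%) and SAL-LPS female 10-2 (8.43%). The 10000 strongest peaks of the hypothalamus libraries MOR-LPS male 6-0 and 14-0 covered 25.9% and 18.4% of the hippocampus-only regions, while no other hypothalamus library exceeded 4.99%. Striatum SAL-SAL male 3-2 reached 13.5%, against at most 1.64% elsewhere in striatum. PFC MOR-SAL male 13-1 had a peak at 0.486% of the shared regions. Some lists went against the labelled tissue. Hypothalamus 6-0 and 14-0 and striatum 3-2 covered 4.75%, 2.51% and 2.14% of the regions found only in their own brain region, less than their share of the hippocampus-only regions. The regions found only in their own brain region had the largest share in 24 of 42 PFC, 37 of 41 hypothalamus and 40 of 45 striatum libraries. In the other PFC libraries the striatum-only regions had the largest share, except in MOR-SAL male 13-1. In the hippocampus, 8 of 44 libraries covered a larger share of the regions found only in another brain region than of the hippocampus-only regions. For 6 of them these were the PFC-only regions, with 22.3% in SAL-SAL male 1-1, 20.8% in SAL-SAL female 9-0, 14.7% in SAL-LPS female 10-0, 13.45% in MOR-LPS male 6-0 and 11.4% in SAL-LPS female 10-2 and male 3-3, against 14.5%, 10.9%, 7.35%, 4.71%, 4.43% and 10.95% of the hippocampus-only regions in the same order. The other two were SAL-LPS male 5-0 (7.26% of hypothalamus-only and 1.71% of hippocampus-only regions) and MOR-LPS female 15-3 (5.27% of striatum-only and 5.24% of hippocampus-only regions). Labels were kept as given, and whether any of these samples carries a wrong label was not tested. The hippocampus lists held 13021 to 143124 peaks (median 75966). Marker promoters were counted in the consensus lists, which pool libraries and so test no single label. Of 19 dentate granule cell genes, 9 had a consensus region within 1000 bp of a transcription start site (TSS) in hippocampus, 2 in PFC, 4 in hypothalamus and 7 in striatum. Of 13 striatal projection neuron genes, 2 did so in hippocampus, 11 in PFC, 1 in hypothalamus and 12 in striatum, so these genes did not set striatum apart from PFC. Of 12 general neuron genes, 10 did so in hippocampus, 10 in PFC, 9 in hypothalamus and 11 in striatum.

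The hippocampus-only regions were not empty in the other brain regions. Absence from a consensus list, which also rests on a read count filter, is not absence of peaks. Since the consensus lists chose these regions, the following shares are a description without a test. A hippocampus-only region had a peak in 75.0% of hippocampus libraries at the median (36.4% to 97.7%), in 21.4% of PFC libraries (up to 81.0%), in 14.6% of hypothalamus libraries (up to 80.5%) and in 4.44% of striatum libraries (up to 55.6%). For shared regions the medians were 84.1%, 85.7%, 68.3% and 73.3% in the same order. Only 7 hippocampus-only regions had no peak in any library of the other 3 brain regions, while 472 (14.6%) had a peak in at least 50% of the libraries of at least 1 of them. Without the 4 libraries of other brain regions that stood apart, the medians were 21.95% in PFC, 10.3% in hypothalamus and 4.55% in striatum. Limited to the 10000 strongest peaks of a library, the medians were 18.2% of hippocampus libraries, 0% in PFC, 2.44% in hypothalamus and 0% in striatum.

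Seen library by library, the 10000 strongest peaks covered 1.71% to 40.1% of the hippocampus-only regions in hippocampus (median 24.5%). The ranges were 0% to 5.09% in PFC (median 0.465%), 0.527% to 25.9% in hypothalamus (median 1.61%) and 0% to 13.5% in striatum (median 0.310%). The hippocampus values overlapped those of every other brain region at their low end.

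**Figure D1:**
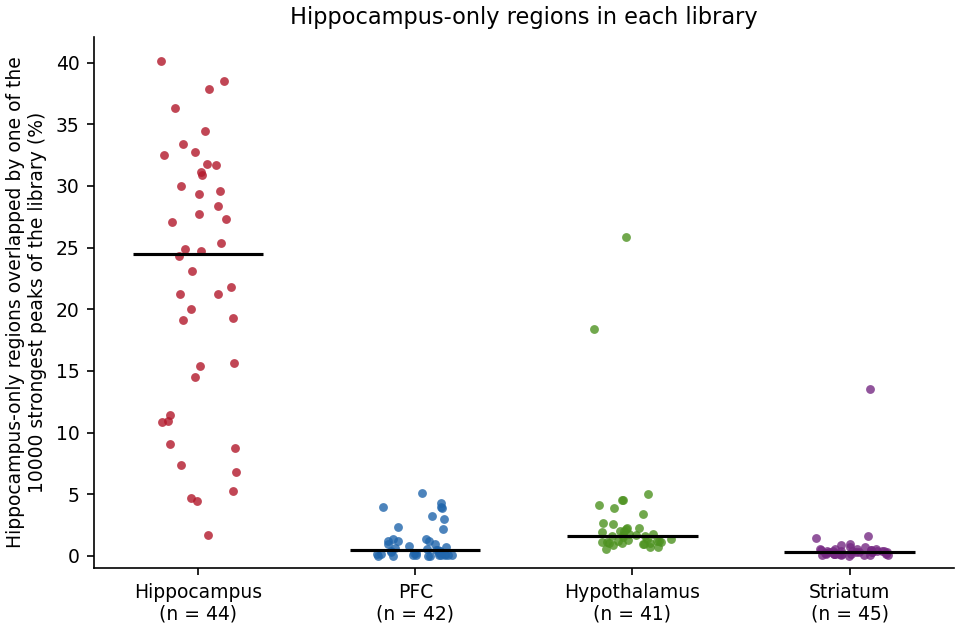
Percentage of the 3225 hippocampus-only regions overlapped by the 10000 strongest peaks of each library (y axis), by brain region (x axis), with 1 point a library and the median as a line. The median is 24.5% in hippocampus, and 2 hypothalamus libraries (25.9% and 18.4%) and 1 striatum library (13.5%) lie away from the rest of their brain region.

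Within the hippocampus the hippocampus-only regions were mostly of low to middling strength. Each region was ranked within its library by the highest −log10 p of its peaks, on a scale from 0 to 100 over the 16201 regions, with regions that had no peak sharing a tied rank at the bottom. That tied rank was 0.185 to 35.8 over the hippocampus libraries (median 6.39), mostly higher in shorter lists, so a rank in this range can belong to a region without a peak. The median rank over hippocampus libraries was 35.2 for the hippocampus-only regions (10.6 to 91.9) and 49.3 for the shared regions. With all regions divided into 5 equal parts from low to high rank, hippocampus-only regions made up 29.6%, 29.6%, 20.5%, 14.4% and 5.43% of them. Only 3 had a median rank above 90, against 485 shared regions, and none had a peak in every hippocampus library, against 424 shared regions.

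The strongest hippocampus-only region lay in an intron of Rilpl1, which encodes an adaptor of vesicle and ciliary traffic. It had a peak in 41 of 44 hippocampus libraries, 23 of 42 PFC libraries, 6 of 41 hypothalamus libraries and 1 of 45 striatum libraries. Its rank ran from 32.9 to 99.9 in hippocampus with a median of 91.9, against medians of 34.7 in PFC, 25.7 in hypothalamus and 21.4 in striatum. The regions near Pgbd5, a gene derived from a transposase, and Gpcpd1, a glycerophosphocholine phosphodiesterase, followed with median hippocampus ranks of 91.1 and 90.1. The Gpcpd1 region also had a peak in 24 hypothalamus libraries, where its median rank was 54.6. An intron of Kcnj6, the G protein-gated potassium channel GIRK2, held a region with a peak in 41 hippocampus libraries and a median rank of 88.7. Introns of Fam19a2, which encodes a secreted chemokine-like protein, and of Galnt17, a glycosyltransferase gene, held regions of median rank 89.3 and 89.2.

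The widest hippocampus-only region covered 23868 bp, with Zbtb18, a zinc finger repressor of cortical neuron development, as its nearest gene. It had a peak in 43 of 44 hippocampus libraries with ranks from 34.4 to 99.5 (median 86.7), against 11 PFC, 5 hypothalamus and 5 striatum libraries. The next widest lay in introns of Galnt17 (21065 bp) and Glis3 (20060 bp), a Krüppel-like zinc finger gene. Few libraries of other brain regions held a peak at the regions near Ermp1 (15 of 128) and in Arhgef17 (16 of 128), although 42 and 43 hippocampus libraries did. The region near Ptges, which makes prostaglandin E2, had a peak in 42 hippocampus libraries with a median rank of 83.4 and in 25 libraries of other brain regions.

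**Figure D2:**
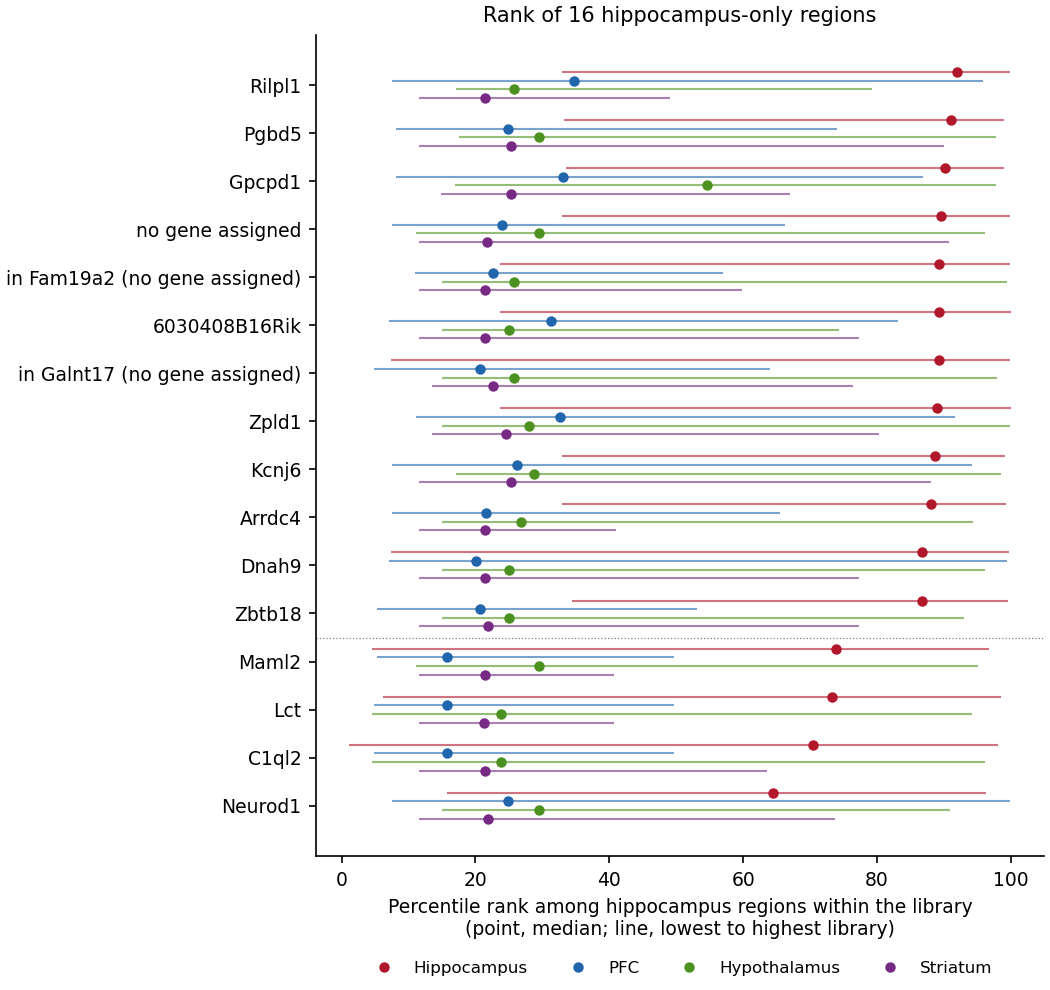
Percentile rank within the library (x axis, 0 to 100) of the 12 hippocampus-only regions of highest median rank and, under the dotted line, 4 regions of dentate granule cell genes, with the median as a point and the lowest to highest library as a line for each brain region. The hippocampus median lies above the medians of PFC, hypothalamus and striatum at all 16, from 91.9 at Rilpl1 to 64.4 at Neurod1, while the lines overlap. All 16 were chosen for a high hippocampus rank among regions missing from the other lists, so this order follows from the choice. Medians of the other brain regions can be the tied rank of libraries without a peak.

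At the threshold of the rule, the nearest hippocampus-only regions lay 3 bp (near Klf13), 8 bp (in Ksr1) and 31 bp (in Ppfia2) from a region of another brain region. Regions just excluded overlapped another by 2 bp (in Scn8a), 29 bp (in Ryr2) and 30 bp (at the Vamp1 promoter). The first 3 had a peak in 34, 25 and 33 hippocampus libraries and in 27, 30 and 11 of the 128 libraries of other brain regions. The last 3 had a peak in 40, 27 and 33 hippocampus libraries and in 22, 10 and 9 others. The counts on both sides of the threshold overlapped. The median distance of a hippocampus-only region to a region of another brain region was 11734 bp, and 281 (8.71%) had such a region within 1 kb.

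Hippocampus-only regions lay away from promoters. Within 1000 bp of a TSS lay 195 of them (6.05%) and 3527 shared regions (27.2%). Intergenic positions took 45.3% of hippocampus-only and 23.6% of shared regions, while introns took 46.4% and 46.6%. The median distance to the nearest protein-coding TSS was 48565 bp, against 22033 bp for shared regions, and 1019 hippocampus-only regions (31.6%) had no such TSS within 100 kb, against 18.4% of shared regions. The difference was present in each of the 5 parts by rank, where promoters made up 5.31% to 8.52% of the hippocampus-only and 12.4% to 34.5% of the shared regions. GC content at the summit was 48.3% and 51.0% at the median, the observed over expected CpG ratio was 0.171 and 0.232, and the width was 4560 and 5104 bp. Their share of a chromosome's regions ran from 16.1% on chromosome 12 to 23.9% on chromosome 1.

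**Figure D3:**
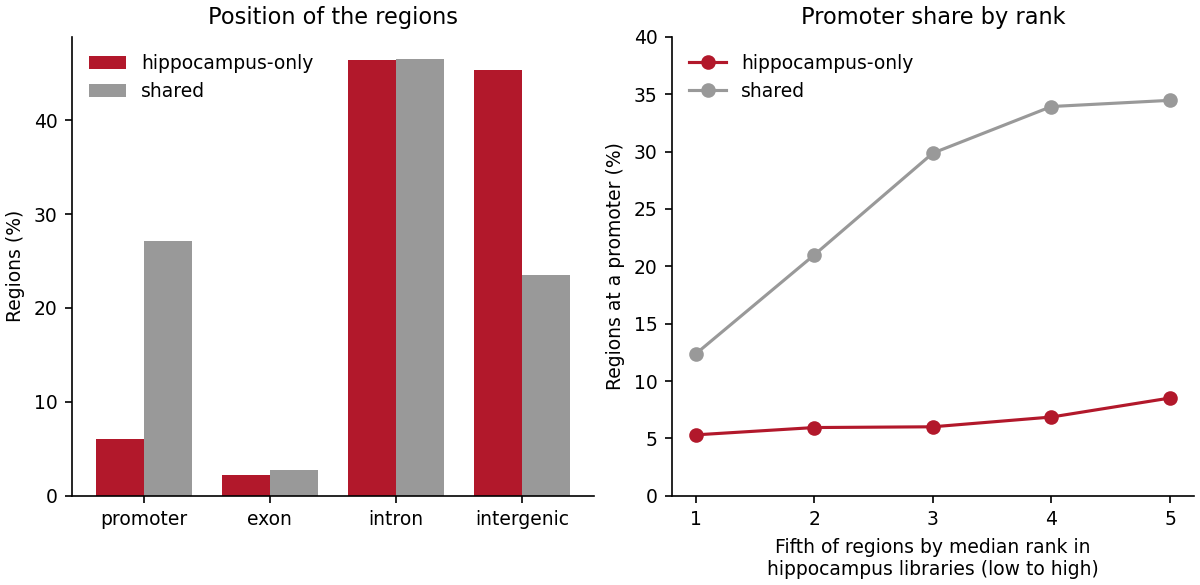
Left, percentage of hippocampus-only (red) and shared (grey) hippocampus regions at promoters, exons, introns and intergenic positions. Right, percentage at promoters in 5 equal parts of all hippocampus regions from low to high median rank, where hippocampus-only regions run from 5.31% to 8.52% and shared regions from 12.4% to 34.5%.

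The strongest hippocampus-only region at a promoter was at Cdk5rap1, a tRNA-modifying enzyme gene, with a peak in 41 hippocampus libraries and a median rank of 85.2. It also had a peak in 27 PFC, 14 hypothalamus and 4 striatum libraries. The promoters of Usp50, a deubiquitinase family gene, Chrd, an antagonist of bone morphogenetic proteins, and Adam8, a metalloprotease, had median ranks of 83.4, 78.7 and 78.1 in hippocampus. The Usp50 region was the most restricted of the 6 strongest promoter regions, with a peak in 20 libraries of other brain regions against 27 to 57 for Cdk5rap1, Fam220a, Chrd, Olfr535 and Adam8.

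A gene within 100 kb could be assigned to 2206 hippocampus-only regions, by the nearest protein-coding TSS. These fell to 1549 genes, of which 1151 had 1 such region and 26 had 5 or more. Dlgap1, a postsynaptic scaffold gene, had the most, with 9 of its 23 hippocampus regions. Tiam1, an activator of Rac, had 8 of 19, Kcnj6 had 8 of 15, Grik4, the kainate receptor subunit typical of CA3, had 8 of 12, and the tetraspanin gene Tspan18 had 8 of 9. Kalrn, another activator of Rac in dendritic spines, had 7 of 32, Gatb 7 of 15, Iqgap2 7 of 14, Trabd2b 7 of 9 and Sipa1l3 6 of 16. At the 8 Tspan18 regions no more than 16.7% of PFC and 17.8% of striatum libraries had a peak, while the hypothalamus share reached 51.2%. All hippocampus regions were hippocampus-only at 574 genes, 18 of them with 3 or more regions. Dnah9, an axonemal dynein gene whose regions partly lay in the neighbouring Shisa6, and Rtn4rl2, a Nogo receptor family gene, had 6 of 6. By the gene they lay in, Dab1, which relays reelin signals, held 18 of its 35 regions and Glis3 12 of 17.

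Genes of the dentate granule cell list had the largest share of hippocampus-only regions among lists with 20 or more regions. Of 56 hippocampus regions assigned to the list, 29 (51.8%) were hippocampus-only, against 2206 of 12789 (17.2%) over all assigned regions, and 14 of the 16 list genes with a region had at least 1. The list covers granule cell markers and was applied with earlier results of these data known. Its 29 regions had a peak in 75.0% of hippocampus, 4.76% of PFC, 9.76% of hypothalamus and 2.22% of striatum libraries at the median. Glis3 had 4 of 5, Maml2 4 of 7, Npnt 3 of 4 and Sema5a 3 of 6, while all regions of C1ql2, Lct and Tdo2 (2 each) and of Neurod1, C1ql3 and Dsp (1 each) were hippocampus-only. Prox1, the factor that specifies granule cells, had 2 of 7. Dock10 and Stxbp6 had 1 of 6 each, and Pdyn and Plk5 had 0 of 1 each. Calb1, Pdzd2 and Trpc6 had no assigned region in hippocampus. The median hippocampus rank was 38.1 over the list's hippocampus-only regions and 48.3 over its shared regions.

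Lct encodes lactase and is also transcribed in granule cells. The region at its promoter had a peak in 36 hippocampus libraries with ranks from 6.16 to 98.6 (median 73.3), in 4 hypothalamus libraries and in no PFC or striatum library. C1ql2, a secreted organiser of mossy fibre synapses, had an intergenic region with a peak in 37 hippocampus, 3 hypothalamus, 1 striatum and no PFC libraries and a median hippocampus rank of 70.4. The intronic region of Maml2, a coactivator of Notch, had a median rank of 73.8, with a peak in 37 hippocampus, 18 hypothalamus, 2 striatum and 1 PFC libraries. The region at the Neurod1 promoter was less restricted, with a peak in 39 hippocampus, 20 PFC, 17 hypothalamus and 5 striatum libraries.

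The CA2 and CA3 pyramidal cell list had 11 of 23 regions hippocampus-only (47.8%), but 8 of these belonged to Grik4, and Rgs14, Homer3 and Bok had 1 each. The Rgs14 region, in a gene that limits plasticity in CA2, had a peak in 38 hippocampus, 17 PFC, 5 hypothalamus and 2 striatum libraries. The CA1 list had 4 of 28 (14.3%), 2 of them in introns of Zbtb20, a zinc finger gene of the hippocampal primordium. Among hippocampal and pallial transcription factors, 25 of 115 regions (21.7%) were hippocampus-only, with median ranks of 85.3 near Neurod2 and 80.9 in an intron of Nfib. The Neurod2 region had a peak in 38 hippocampus, 13 PFC and 2 hypothalamus libraries and in no striatum library.

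Genes of axon guidance had 21 of 63 regions hippocampus-only (33.3%), and Wnt pathway genes 10 of 34 (29.4%). Nrp1, a receptor for class 3 semaphorins, had 6 of 7, and Slit1, a repellent ligand of Robo receptors, had 4 of 6, with a median rank of 82.3 at the strongest. Regions near the ligand genes Wnt7b and Wnt7a had median ranks of 69.6 and 68.6. Genes induced by neuronal activity had 16 of 62 (25.8%). Bdnf, a neurotrophin, had 5 of 6, and 2 of these were at its promoters. The Bdnf regions had a peak in at most 4.76% of PFC and 2.22% of striatum libraries, and the hypothalamus share reached 36.6% at 1 of them. Nr4a2, an orphan nuclear receptor, had 2 of 2, with a median rank of 80.4 at the intergenic region.

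Receptor and channel lists lay closer to the share of all assigned regions. Glutamate receptor genes had 12 of 57 (21.1%), GABA receptor genes 9 of 49 (18.4%), calcium and sodium channel genes 15 of 88 (17.0%) and potassium channel genes 13 of 126 (10.3%). Grik4, counted in the CA2 and CA3 list as well, gave 8 of the 12 glutamate receptor regions, and Kcnj6 gave 8 of the 13 potassium channel regions. Of 26 regions at opioid system genes 3 were hippocampus-only, and all 3 were the intergenic regions of Oprd1, the delta opioid receptor gene, which had no other region in hippocampus. They had a peak in 36, 32 and 34 hippocampus libraries, with median ranks of 36.7, 33.9 and 33.3, and in 22, 15 and 12 PFC libraries. General neuron genes had 1 of 51 (1.96%). Glial lists had few regions. Oligodendrocyte genes had 2 of 16 and astrocyte genes 1 of 5, while endothelial genes had 0 of 5. The promoter of P2ry12, a microglial receptor, was the single region assigned to the 9 microglia genes and was hippocampus-only, with a peak in 39 hippocampus, 13 PFC, 7 hypothalamus and 7 striatum libraries. The part of non-neuronal nuclei in it was not tested.

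**Figure D4:**
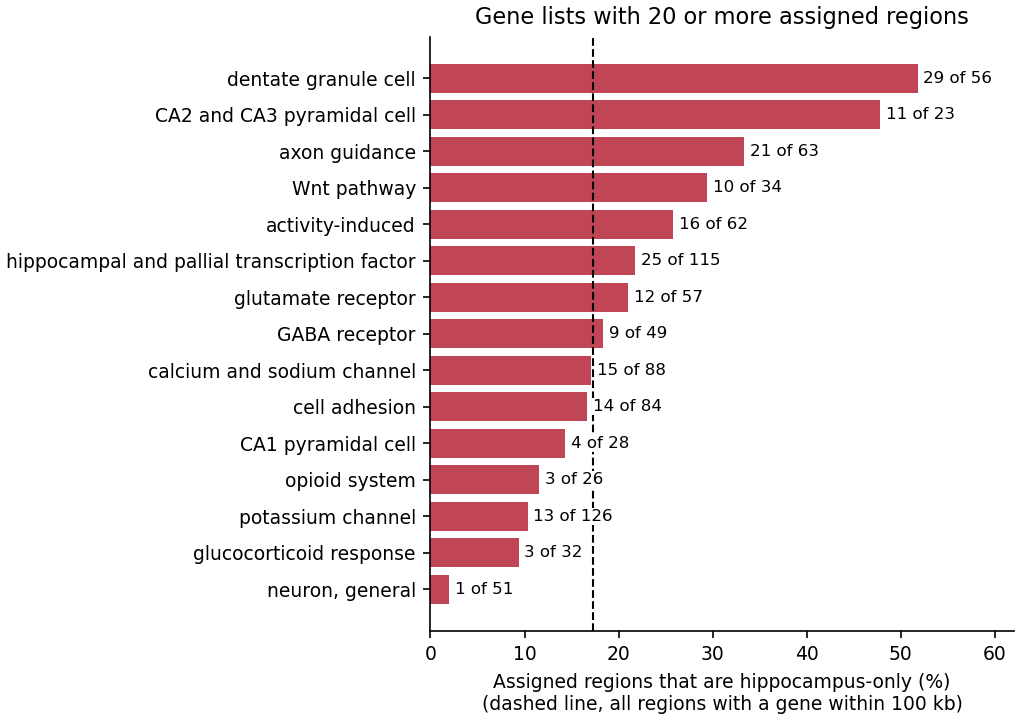
Percentage of assigned hippocampus regions that are hippocampus-only (x axis) for each gene list with 20 or more assigned regions, with counts beside the bars and the share of all assigned regions (17.2%) as a dashed line. The dentate granule cell list (29 of 56) and the CA2 and CA3 list (11 of 23) are at the top and the general neuron list (1 of 51) is at the bottom.

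Treatment differences were tested in hippocampus on the ranks of all 16201 regions with limma, with group and sex as terms. With Benjamini-Hochberg adjustment, 0 of 3225 hippocampus-only regions passed an adjusted p of 0.05 in MOR-LPS against SAL-LPS, where 0% of all regions did. None passed in MOR-SAL against SAL-SAL (0.00617% of all), in SAL-LPS against SAL-SAL (0%), in MOR-LPS against MOR-SAL (0%) or in the interaction of morphine and LPS (0.00617%). At an unadjusted p under 0.05, MOR-LPS against SAL-LPS had 154 higher and 58 lower hippocampus-only regions (6.57%), against 7.56% of all regions. MOR-SAL against SAL-SAL had 124 higher and 80 lower (6.33%), against 5.64%. SAL-LPS against SAL-SAL had 83 higher and 151 lower (7.26%), against 9.59%, MOR-LPS against MOR-SAL 88 and 73 (4.99%), against 6.09%, and the interaction 95 and 55 (4.65%), against 5.66%. The balance of higher and lower turned under other scalings in some comparisons. In lists of equal length SAL-LPS against SAL-SAL had 115 higher and 103 lower and the interaction 70 and 77, and with the number of peaks as a term MOR-SAL against SAL-SAL had 99 and 106. MOR-LPS against SAL-LPS kept more higher than lower, with 107 and 38 in lists of equal length and 170 and 51 with the number of peaks as a term. An exact conditional test of presence among the 10000 strongest peaks was run for the same comparisons except the interaction and also called none. At an unadjusted p under 0.05 it had 27 higher and 5 lower of 1311 hippocampus-only regions tested in MOR-LPS against SAL-LPS (2.44%, against 3.3% of all regions tested). It had 9 and 14 of 1508 in MOR-SAL against SAL-SAL (1.53%, against 2.51%), 4 and 103 of 1413 in SAL-LPS against SAL-SAL (7.57%, against 6.89%) and 15 and 16 of 1427 in MOR-LPS against MOR-SAL (2.17%, against 3.19%).

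The median rank difference over the hippocampus-only regions was 3.06 in MOR-LPS minus SAL-LPS (0.08 over all regions), with 1973 of 3225 positive, and 1.12 in MOR-SAL minus SAL-SAL (−0.05). It was −1.56 in SAL-LPS minus SAL-SAL (−0.17), and 0.44 there when all lists were shortened to 13021 peaks. It was 0.26 in MOR-LPS minus MOR-SAL (−0.04). Per library, the median rank of the hippocampus-only regions ran from 15.8 to 53.0 in MOR-LPS (median 42.7), 32.7 to 56.3 in MOR-SAL (38.9), 20.7 to 47.6 in SAL-LPS (35.1) and 23.1 to 51.6 in SAL-SAL (41.1), so the 4 groups overlapped. The comparisons share groups and are not independent. Regions ranked in the same libraries are not independent either, so the 1973 positive regions are not replicates of the treatment. With a library left out they numbered 1798 to 2079. The number of peaks moved with the groups as well, with medians of 57627 in MOR-LPS, 62325 in MOR-SAL, 53566 in SAL-LPS and 94654 in SAL-SAL. With the number of peaks as a term, the median difference over hippocampus-only regions was 3.32 in MOR-LPS minus SAL-LPS and −2.69 in SAL-LPS minus SAL-SAL. Without the 8 libraries that covered more of another brain region, it was 2.26 in MOR-LPS minus SAL-LPS, −1.12 in MOR-SAL minus SAL-SAL, −1.24 in SAL-LPS minus SAL-SAL and 2.14 in MOR-LPS minus MOR-SAL, so the sign turned for MOR-SAL minus SAL-SAL.

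**Figure D5:**
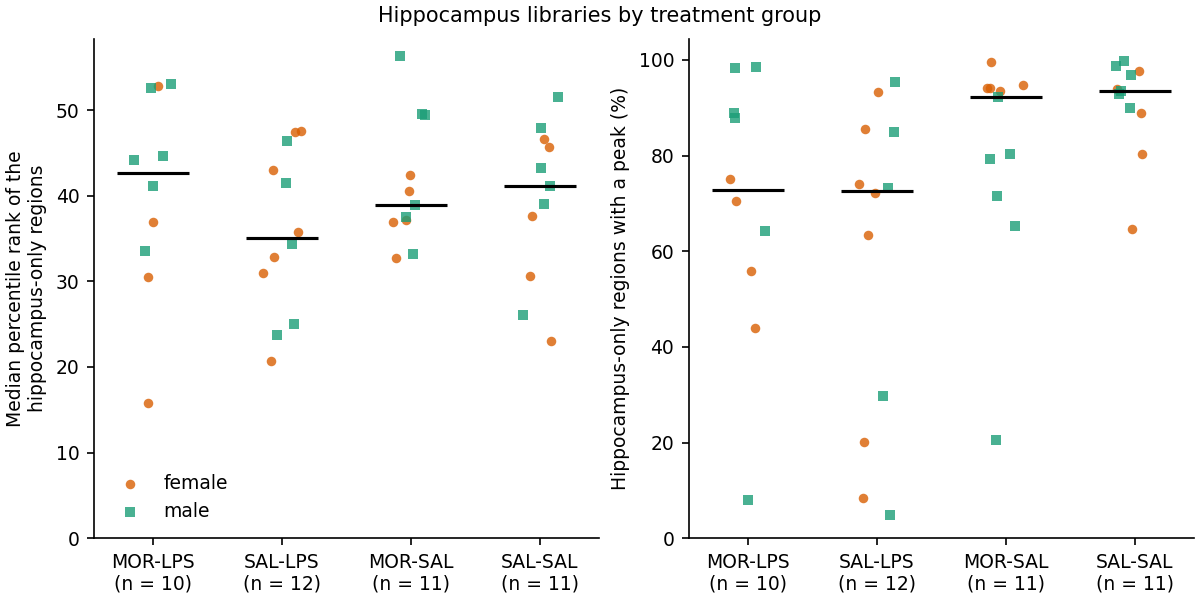
Median percentile rank of the hippocampus-only regions (left) and percentage of them with a peak (right) in each hippocampus library, by treatment group, with females as circles, males as squares and group medians as lines. The groups overlap in both panels, and the 3 libraries with a peak at fewer than 10% of regions belong to SAL-LPS (2) and MOR-LPS (1).

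The hippocampus-only regions of smallest p are given as values, since none passed the adjusted threshold. The tied rank of regions without a peak ran from 0.870 to 33.5 in MOR-LPS, 0.194 to 33.2 in MOR-SAL, 1.69 to 35.8 in SAL-LPS and 0.185 to 7.31 in SAL-SAL libraries, so numbers of libraries with a peak are given as well. The Rilpl1 region ranked from 32.9 to 99.8 in SAL-LPS (median 60.1, a peak in 9 of 12 libraries), against 73.3 to 99.5 in SAL-SAL (median 95.9, 11 of 11). Some SAL-LPS libraries lay below all SAL-SAL libraries and the highest lay above them, with a difference of −26.9 ± 6.36 (SE) and a limma adjusted p of 0.161. The lowest SAL-LPS rank at Rilpl1 was the tied rank of a library without a peak there. Prickle1, a planar polarity gene, had an intergenic region ranked 6.16 to 84.2 in SAL-LPS (median 38.7, a peak in 8 of 12), against 3.40 to 16.6 in SAL-SAL (median 7.31, 7 of 11). Its difference was 36.1 ± 9.21 (SE, limma adjusted p = 0.194), and MOR-SAL, set against the same SAL-SAL libraries, ran from 5.07 to 94.5 (median 38.9, a peak in 10 of 11, adjusted p = 0.622). In MOR-LPS against SAL-LPS, the region in Epo, the erythropoietin gene, ranked 33.5 to 92.8 in MOR-LPS (median 65.2, a peak in 9 of 10) and 2.48 to 66.8 in SAL-LPS (median 33.1, 7 of 12). The region in Fmn1, an actin nucleator gene, had a peak in 3 of 10 MOR-LPS and 8 of 12 SAL-LPS libraries, with ranks of 4.74 to 33.5 in MOR-LPS (median 14.1) and 12.0 to 90.8 in SAL-LPS (median 43.7). Its highest MOR-LPS rank, like the lowest at Epo, was the tied rank of a library without a peak there. The groups overlapped at both, and both had a limma adjusted p of 0.520. In MOR-LPS against MOR-SAL, Ankrd46 had the smallest p, with ranks of 6.69 to 98.7 in MOR-LPS (median 61.6, a peak in 8 of 10) and 2.50 to 55.7 in MOR-SAL (median 12.8, 6 of 11) and a limma adjusted p of 0.374. In the interaction Slc35c1, the gene of a GDP-fucose transporter, had the smallest p, with a limma adjusted p of 0.513 and median ranks of 83.5 in MOR-LPS, 35.1 in SAL-LPS, 52.8 in MOR-SAL and 73.8 in SAL-SAL.

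Between the sexes, 0 of 3225 hippocampus-only regions passed the limma adjusted p of 0.05, where 0% of all regions did. At an unadjusted p under 0.05, 36 were higher and 193 lower in females (7.101%), against 8.07% of all regions. The median difference, female minus male, was −3.26 (−0.20 over all regions), with 989 of 3225 positive. These regions were ranked in the same libraries, so their signs are not independent. Per library, the median rank ran from 15.8 to 52.8 in 21 females (median 36.9) and from 23.7 to 56.3 in 23 males (median 41.5), so the sexes overlapped. The region in an intron of Mpp3, a gene of the membrane-associated guanylate kinase family, ranked 2.05 to 83.2 in females (median 20.5, a peak in 15 of 21) and 7.21 to 87.7 in males (median 51.9, 19 of 23), a difference of −29.06 ± 7.104 (SE) with a limma adjusted p of 0.111. A Tspan18 region ranked 2.48 to 52.8 in females (median 15.9, a peak in 12 of 21) and 4.69 to 87.6 in males (median 43.5, 19 of 23), with an adjusted p of 0.175. Without the 3 hippocampus libraries with few of these regions, the smallest adjusted p over hippocampus-only regions was 0.0535.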

How the data were processed

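H3K27ac was measured by MOWChIP-seq, a microfluidic chromatin immunoprecipitation, in 206 samples, of which 32 were inputs. Per the labels, mm10 was the genome build, and the processing notes name Trim Galore 0.6.7 for trimming, Bowtie2 2.4.5 and SAMtools 1.15.1 for alignments, MACS2 2.2.7.1 for the peak list of each library and DiffBind 3.10.1 for the consensus of each brain region. The authors kept consensus regions present in at least 50% of samples and, of these, those with enough reads in most samples of any condition. The second filter uses read counts, so a region can be missing from a list although many of its libraries have a peak. The deposited peak lists give a score, a fold enrichment (ratio) and −log10 p and q values; the lowest −log10 q was 1.301. They hold no read counts, so read depth is not known and ranks within a library were compared.

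Of 174 peak lists, 172 were compared. SAL-LPS male 1-2 and 5-2 of the hippocampus were identical and were counted once, and a PFC list with under 10000 peaks was left out. Replicates were separate mice. Perinatal treatment was assigned to dams and no label names the litter, so any littermates count as independent in the main fit. The number before the dash in an animal's number, shared by animals of both adult treatments for 14 of 18 numbers, served as a replicate block, with a correlation of 0.00141 over all regions.

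A region's rank (0 to 100) came from the highest −log10 p of peaks overlapping it by 1 bp or more. limma 3.58.1 in R 4.3.3 (mean-variance trend, group and sex, two-sided, Benjamini-Hochberg over 16201 regions, called under 0.05) was tested on simulated data. The occupancy test was exact and stratified by sex, two-sided, on regions present in 20% to 80% of libraries. Genes came from GENCODE M21 by the nearest protein-coding TSS within 100 kb, and sequences from GRCm38 by pysam 0.24.0. Other work used Python 3.11.15 and scipy 1.17.1.

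The members and the 26 gene lists were chosen with earlier results of these data known. Regions named were the 12 of highest median rank, the 6 strongest at promoters, the 3 widest, the 3 on each side of the rule's threshold, the 6 with fewest libraries of other brain regions, up to 4 a gene list, the 10 genes with most members and, per comparison, the 3 of smallest p in each direction; the text gives a selection of these, and other list genes, Dnah9, Rtn4rl2, Dab1 and the Glis3 host count were chosen after their values were seen. Alternatives are given in the closing section.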

Additional observations from a re-analysis of the deposited data

Results flagged for a closer look

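The percentage of hippocampus-only regions covered by the 10000 strongest peaks of a library was examined for single libraries far from their group, in 7 groups of 7 to 10 libraries, and 3 values stood out. The number of peaks, the median rank and the share with a peak were examined in the hippocampus MOR-LPS libraries as well, and no value stood out. Chance flags about 1 in 20 groups. Striatum SAL-SAL male 3-2 had 13.52%, against 0.0620% to 0.713% in the rest of its 10 libraries. Hypothalamus SAL-SAL male 3-2, of the same animal number, had 4.496%, against 0.713% to 2.23% in the rest of its 8 libraries. PFC SAL-SAL female 10-3 had 4.248%, against 0% to 1.33% in the rest of its 8 libraries.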

How the results depend on the processing

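The number of hippocampus-only regions was 3259 when a region could be covered by up to 10% and 2944 when no other region was allowed within 1 kb, and it was 5495 without the striatum list. The median share of hippocampus libraries with a peak was 45.5% at a −log10 q of 5 or more and 18.2% in the 10000 strongest peaks, against 75.0% in full lists, by the construction of shorter lists. No hippocampus-only region was called in any comparison run under 54 other limma fits, of which 44 left out a library each; the fit with no sex term had no comparison of the sexes, and the occupancy test, also without a call, had neither that comparison nor the interaction. The fit limited to regions with a peak in at least 20% of libraries removed no region, so it repeated the main fit. With the replicate block, 0 hippocampus-only regions were called in each comparison. A term for the style of the peak names, leaving out the 3 low libraries and leaving out the 8 libraries that covered more of another brain region were chosen after seeing the data, and the smallest adjusted p over hippocampus-only regions came to 0.0668 (SAL-LPS minus SAL-SAL), 0.0535 (female minus male) and 0.0856 (female minus male). The median share of hippocampus libraries with a peak was 83.3% without those 8 libraries. Leaving out a library moved the median difference to between 1.44 and 4.21 in MOR-LPS minus SAL-LPS, −0.06 and 2.23 in MOR-SAL minus SAL-SAL, −2.58 and −0.09 in SAL-LPS minus SAL-SAL, −0.89 and 1.302 in MOR-LPS minus MOR-SAL, 0.36 and 2.94 in the interaction and −4.16 and −2.76 in female minus male. The sign turned in MOR-SAL minus SAL-SAL without SAL-SAL 1-1, and in MOR-LPS minus MOR-SAL without MOR-LPS 12-0 (−0.88), 17-1 (−0.89) or 8-3 (−0.59) or MOR-SAL 12-1 (−0.19), 16-1 (−0.03), 17-4 (−0.33), 7-3 (−0.29) or 8-0 (−0.33). Peak lists limit these comparisons, because a rank carries no read depth and a region without a peak cannot be told from a weak one.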
